A study of Mus musculus with 12 samples.

Results

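The 10 genes described here encode core enzymes of glycolysis: Hk1, Gpi1, Pfkm, Pfkl, Pfkp, Aldoa, Aldoc, Pgk1, Pgam1 and Pkm. They were taken by symbol from a table of 36121 genes measured by RNA sequencing in mouse spinal cord, and all 10 passed the expression filter that 15259 genes of the table passed. The symbol Aldoa stands on 2 rows of the table, and the row with the higher mean was used, at 1301 TPM against 2.91 TPM for the other. Among rows of a symbol the row was chosen by its mean over the 12 libraries, and the symbols themselves were selected with earlier results of the same libraries, group differences included, already known. TPM is a transcript level scaled to the library and corrected for transcript length, so levels can be compared between genes.

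The cords came from 12 C57BL6 mice aged 3 months, each sequenced as its own library. The 4 control mice had the genotype Tardbp-fl/fl and no Cre. The 4 cHet mice were Gfap-Cre; Tardbp-fl/+ and the 4 cKO mice were Gfap-Cre; Tardbp-fl/fl, so that floxed Tardbp alleles were common to all groups and Cre was present in cHet and cKO. Each group held 2 males and 2 females. Cre under the Gfap promoter is expected in astrocytes and in other cells with a history of that promoter, while the RNA came from whole cord and so also from cells without Cre. Tardbp encodes TDP-43, a nuclear RNA-binding protein whose mislocalisation marks most amyotrophic lateral sclerosis, and the design asks how its removal from Gfap-Cre cells alters the cord.

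Glycolysis splits glucose into pyruvate in the cytosol and yields ATP and NADH. Hexokinase traps glucose in the cell, glucose-6-phosphate isomerase and phosphofructokinase prepare it for cleavage by aldolase, and phosphoglycerate kinase, phosphoglycerate mutase and pyruvate kinase belong to the stage that returns ATP. Phosphofructokinase carries out the committed, allosterically controlled step, as a tetramer of muscle (Pfkm), liver (Pfkl) and platelet (Pfkp) subunits. In nervous tissue astrocytes are known as strongly glycolytic cells that release lactate, and aldolase C is widely used as a marker of astrocytes in brain.

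In cKO cords 7 of the 10 genes were higher than in controls, and none was lower. The largest differences were in Pfkm at 1.36-fold, Aldoc at 1.27-fold and Pfkp at 1.25-fold, followed by Pfkl at 1.16-fold, Pgk1 at 1.14-fold, Pgam1 at 1.13-fold and Pkm at 1.06-fold. Hk1, Gpi1 and Aldoa did not pass the test. Pfkm, Aldoc and Pfkp were also higher in cKO than in cHet cords. No gene of the 10 differed between cHet and control cords at the threshold used, an adjusted p under 0.05 by limma over all genes tested. Across those genes 9.00% were called in cKO against control, 5.75% as higher and 3.25% as lower, and 5.01% in cKO against cHet, 2.41% as higher and 2.61% as lower. With every library brought to an equal total, 4 of the 10 were called higher in cKO than in control, 4 others lay just below 0, and the calls among all genes turned from 878 higher and 496 lower to 352 higher and 1666 lower. Given how the genes were selected, the counts describe them and are not independent evidence.

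Tardbp itself (chr4:148612382-148627019, minus strand, GRCm38) was measured at 181, 167, 169 and 166 TPM in the control libraries, at 178, 173, 172 and 158 TPM in cHet and at 150, 150, 151 and 140 TPM in cKO. The cKO libraries all lay below the other 8, and the fall against control was −0.20 ± 0.04 on the log2 scale (SE; limma adjusted p = 0.0113). Library totals of deposited TPM averaged 967165 ± 12164 for control, 1002460 ± 18688 for cHet and 1031666 ± 12645 for cKO mice (SD, n = 4 each). Every cKO total and every cHet total was above every control total (two-sided exact permutation p = 0.0286 for each group, the smallest that 4 against 4 can give). The share of mitochondrially encoded transcripts was 17.3 ± 1.08% for control, 17.2 ± 0.89% for cHet and 19.6 ± 0.69% for cKO mice (SD, n = 4 each). Differences between groups therefore carry the scaling the authors deposited, and the effect of other scalings is given with the results. The number of reads behind each value is unknown.

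The 10 genes spanned a wide range of levels. In control cords Pkm was the most abundant at 1345 ± 21.4 TPM (SD, n = 4), followed by Aldoa at 1280 ± 37.3 and Aldoc at 1229 ± 49.9 TPM, and the ranges of neighbours in that order overlapped. Pgam1 at 404 ± 11.6 and Pgk1 at 402 ± 9.49 TPM came next and also overlapped. Below them Gpi1 at 342 ± 13.1, Pfkm at 241 ± 3.79, Pfkp at 198 ± 8.52, Hk1 at 117 ± 1.35 and Pfkl at 46.9 ± 1.37 TPM stood apart from their neighbours without overlap. The cHet cords gave the same order except that Pgk1 and Pgam1, which overlapped there too, exchanged places. In cKO cords Aldoc was the most abundant at 1560 ± 60.0 TPM, with Pkm at 1428 ± 28.0 and Aldoa at 1331 ± 45.3 TPM below it, and the ranges of these 3 genes did not overlap.

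**Figure D1:**
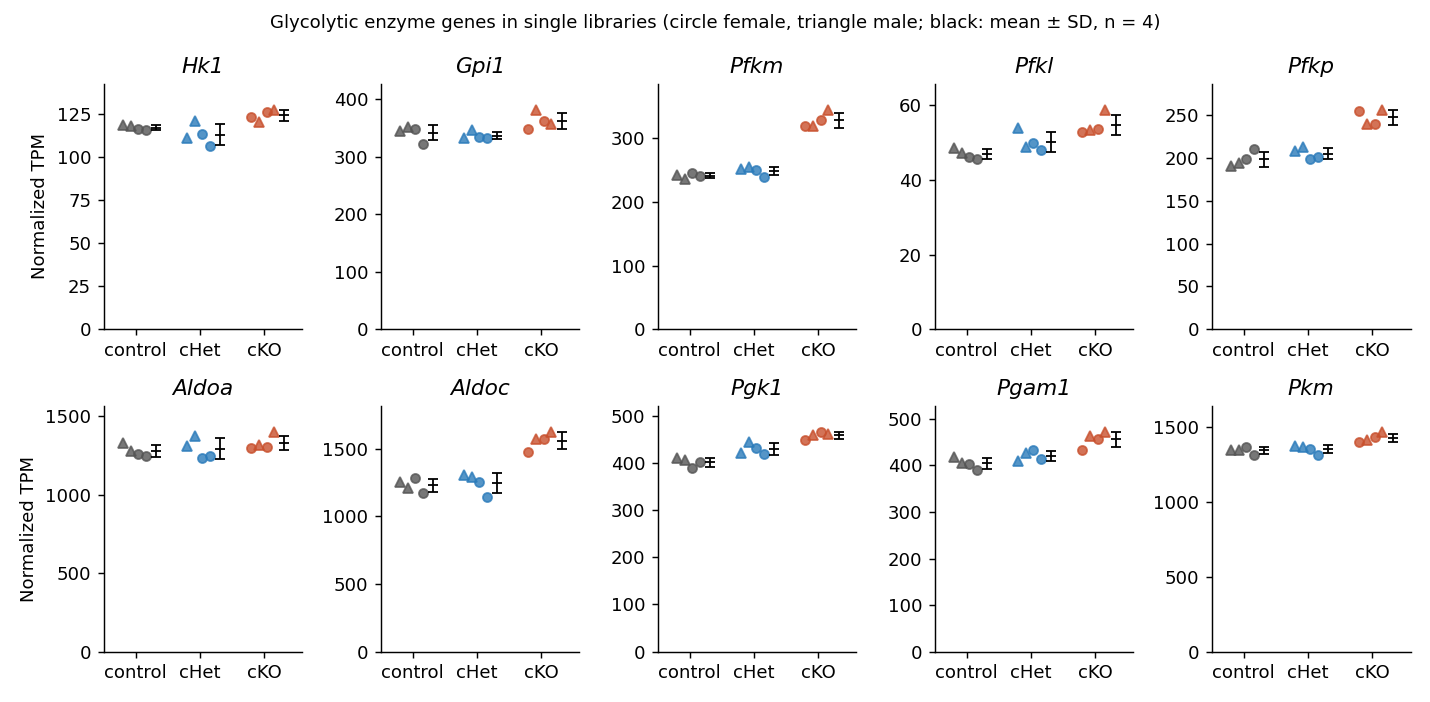
Normalized TPM of the 10 glycolytic genes in each library, with the 3 groups on the horizontal axis and a vertical axis from 0 in every panel; circles are females, triangles males, and black bars the mean ± SD of 4 mice. The cKO libraries of Pfkm lie between 320 and 344 TPM, above all control and cHet libraries, whereas those of Aldoa overlap both groups.

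The letters ACGTG and GCGTG are the core that hypoxia-inducible factors bind, and glycolytic genes are textbook targets of these factors, so the promoters were searched for them. The windows run from 250 bases before to 50 after an annotated start and come from RefSeq, build GRCm38.p6, which held 18 windows for the 10 genes. ACGTG was found on either strand in 9 of the 18 windows, against 19.6% of all 32851 windows, and GCGTG in 8, against 32.4%. Either was in 13 of the 18 windows, against 43.8% of all. Windows of Pfkm overlap in part, as do windows of Aldoa, so 1 site can count in more than 1 window. The 18 windows are therefore not independent. Of the 10 genes 9 held either in at least 1 window. A gene with several windows has more chances of a match, and no share over all genes was taken, so that count has nothing to be set against. Genes that did not pass the test in cKO against control held matches too: Hk1 and Aldoa had a match in at least 1 of their windows. An Hk1 window held 2 of ACGTG and 3 of GCGTG, more than any window printed below. The palindrome CACGTG, an E-box that other factors bind, holds ACGTG on both strands and overlaps these matches, as in a Pfkm window. Below is 1 window each of Pfkp, Aldoc and Pgk1, which rose in cKO, and of Gpi1, which did not pass the test. Gpi1 was the only gene of the 10 without a match. Each window reads 5′ to 3′ on the strand of the gene, with the matches of both strands in capitals. The windows lie at chr13:6648722-6649021, chr11:78322823-78323122, chrX:106186850-106187149 and chr7:34230287-34230586.
Pfkp: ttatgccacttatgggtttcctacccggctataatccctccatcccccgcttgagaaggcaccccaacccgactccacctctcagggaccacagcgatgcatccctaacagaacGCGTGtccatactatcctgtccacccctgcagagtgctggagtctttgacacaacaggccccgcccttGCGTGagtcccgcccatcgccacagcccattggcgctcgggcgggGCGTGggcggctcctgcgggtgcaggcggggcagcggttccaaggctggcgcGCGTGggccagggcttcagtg
Aldoc: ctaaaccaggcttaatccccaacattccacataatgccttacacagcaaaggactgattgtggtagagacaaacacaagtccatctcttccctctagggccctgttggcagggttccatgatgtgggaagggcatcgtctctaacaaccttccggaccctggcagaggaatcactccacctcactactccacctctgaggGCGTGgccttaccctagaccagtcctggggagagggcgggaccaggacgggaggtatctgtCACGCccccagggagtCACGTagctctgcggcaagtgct
Pgk1: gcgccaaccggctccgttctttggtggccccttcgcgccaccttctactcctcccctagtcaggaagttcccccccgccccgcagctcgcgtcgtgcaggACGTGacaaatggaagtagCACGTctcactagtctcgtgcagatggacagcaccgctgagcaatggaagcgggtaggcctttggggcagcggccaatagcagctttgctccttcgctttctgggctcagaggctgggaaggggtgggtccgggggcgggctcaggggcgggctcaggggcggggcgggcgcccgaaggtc
Gpi1: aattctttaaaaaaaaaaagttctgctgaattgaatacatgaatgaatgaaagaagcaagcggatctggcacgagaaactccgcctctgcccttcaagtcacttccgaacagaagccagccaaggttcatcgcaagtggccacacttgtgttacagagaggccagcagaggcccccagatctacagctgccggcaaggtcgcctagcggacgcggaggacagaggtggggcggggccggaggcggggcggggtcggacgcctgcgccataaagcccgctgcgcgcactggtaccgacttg
A match is a description of the letters in the window, not of binding. In the printed windows Pfkp holds 4 matches of GCGTG, Pgk1 holds 2 of ACGTG, and Aldoc holds 1 of ACGTG and 2 of GCGTG. The other Aldoc window, not printed, holds 1 of GCGTG.

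Among the 10 genes the phosphofructokinase gene Pfkm showed the largest difference in both comparisons of cKO. Pfkm (chr15:98092589-98132451, plus strand) was at 242, 236, 245 and 241 TPM in control libraries, at 251, 254, 250 and 240 TPM in cHet and at 320, 320, 329 and 344 TPM in cKO. No cKO library overlapped a library of the other groups. Pfkm rose by 0.44 ± 0.03 on the log2 scale in cKO against control (SE; limma adjusted p = 1.41e-05) and by 0.40 ± 0.03 against cHet (adjusted p = 2.78e-05). It was the gene of the 10 whose profile over the 12 libraries lay farthest from their mean profile.

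Pfkp (chr13:6579768-6648777, minus strand), the platelet-type subunit, was at 191, 194, 198 and 210 TPM in control libraries, at 208, 212, 199 and 201 TPM in cHet and at 254, 239, 240 and 256 TPM in cKO. Control and cHet libraries overlapped, and the cKO libraries lay above both. The rise was 0.32 ± 0.04 on the log2 scale against control (SE; limma adjusted p = 0.000354) and 0.27 ± 0.04 against cHet (adjusted p = 0.00129). Pfkl (chr10:77986947-78010083, minus strand), the scarcest subunit, was at 48.7, 47.3, 46.2 and 45.6 TPM in control, at 54.0, 48.8, 50.0 and 48.1 TPM in cHet and at 53.0, 53.4, 53.8 and 58.8 TPM in cKO. Its cKO libraries lay above the controls and overlapped cHet. Pfkl rose by 0.22 ± 0.05 on the log2 scale against control (SE; limma adjusted p = 0.0114), and its difference from cHet was 0.12 ± 0.05 (adjusted p = 0.168).

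Summed over the 3 subunit genes, phosphofructokinase amounted to 486 ± 8.67 TPM for control, 504 ± 12.5 for cHet and 630 ± 20.1 for cKO mice (SD, n = 4 each). The makeup of that sum is a ratio within a library and does not depend on how libraries are scaled. Pfkm made up 49.6 ± 0.79% of it in control mice, 49.4 ± 0.52% in cHet mice and 52.1 ± 0.77% in cKO mice, and the lowest cKO library, at 51.0%, lay above the highest of the others, at 50.2%. The share of Pfkl was 9.66 ± 0.43% for control, 9.97 ± 0.44% for cHet and 8.69 ± 0.20% for cKO mice, where every library was below those of the other groups. The share of Pfkp was 40.8 ± 1.13%, 40.7 ± 0.61% and 39.3 ± 0.90% in the same order, and the groups overlapped. These shares were not tested, since the genes were selected with results known.

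Aldolase cleaves fructose-1,6-bisphosphate, and its 2 abundant genes in the cord gave different results. Aldoc (chr11:78322968-78327781, plus strand) was at 1255, 1211, 1282 and 1169 TPM in control libraries, at 1303, 1290, 1255 and 1144 TPM in cHet and at 1477, 1570, 1571 and 1621 TPM in cKO. The cKO libraries all lay above the other 8, which overlapped each other. Aldoc rose by 0.34 ± 0.05 on the log2 scale against control (SE; limma adjusted p = 0.000690) and by 0.32 ± 0.05 against cHet (adjusted p = 0.00143). Aldoa (chr7:126795234-126800751, minus strand), the widely expressed form, was at 1331, 1280, 1261 and 1246 TPM in control, at 1313, 1377, 1233 and 1244 TPM in cHet and at 1300, 1320, 1306 and 1398 TPM in cKO. Its groups overlapped, and its difference between cKO and control was 0.06 ± 0.04 on the log2 scale, with a 95% interval of −0.03 to 0.14 (limma adjusted p = 0.445). The second Aldoa row belongs to a separate gene model immediately upstream (chr7:126800790-126809108, minus strand).

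As a percentage of the summed TPM of Aldoa and Aldoc, Aldoc was 49.0 ± 0.96% for control, 49.1 ± 1.19% for cHet and 54.0 ± 0.64% for cKO mice (SD, n = 4 each). The cKO libraries lay between 53.2% and 54.6% and those of the other groups between 47.9% and 50.4%. The sum itself was 2509 ± 74.0 TPM for control, 2540 ± 126 for cHet and 2891 ± 99.1 for cKO mice. No test was made of these shares.

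**Figure D2:**
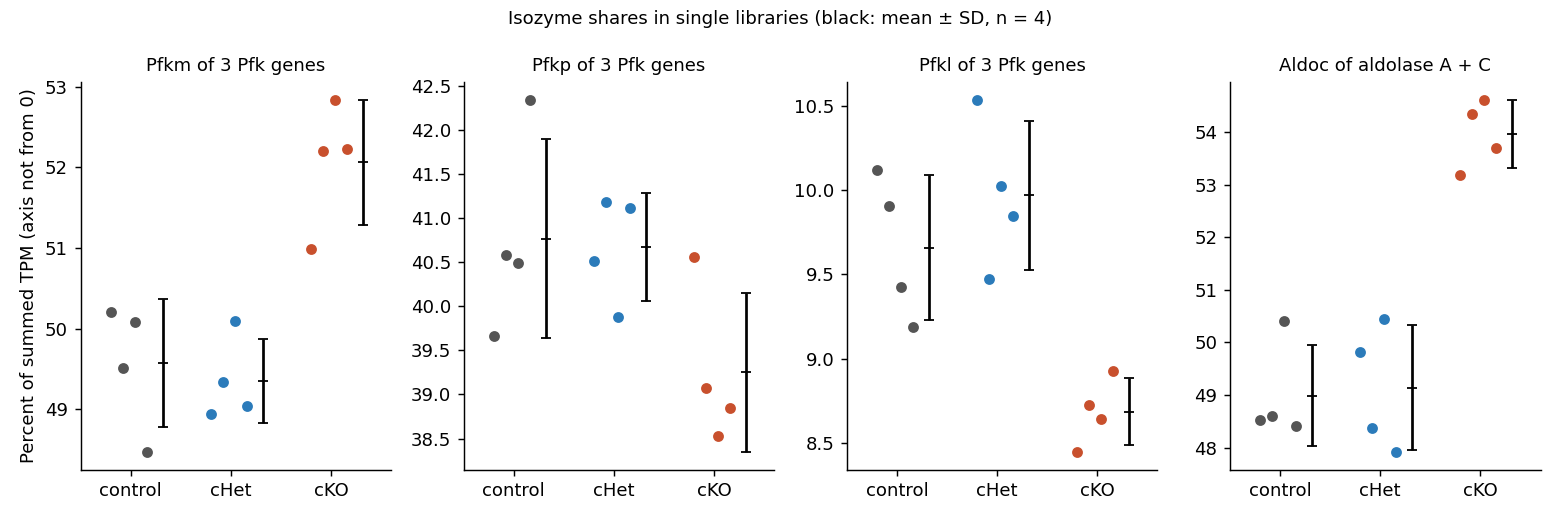
Share of each phosphofructokinase gene in the summed TPM of Pfkm, Pfkl and Pfkp, and of Aldoc in Aldoa plus Aldoc, in percent per library and group, with black bars for the mean ± SD of 4 mice; the vertical axes do not start at 0. The cKO libraries lie apart for Pfkm, Pfkl and Aldoc, with Aldoc at 53.2% to 54.6%, and overlap the other groups for Pfkp.

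The genes of the opening steps did not pass the test. Hk1 (chr10:62268855-62379908, minus strand), the main hexokinase of nervous tissue, was at 118, 118, 116 and 116 TPM in control, at 111, 121, 113 and 106 TPM in cHet and at 123, 120, 126 and 127 TPM in cKO. The cKO libraries lay above the controls but overlapped cHet, and the difference from control was 0.08 ± 0.04 on the log2 scale with a 95% interval of 0.0026 to 0.16 (limma adjusted p = 0.204). The difference of Hk1 from cHet was 0.14 ± 0.04 (adjusted p = 0.0572). Gpi1 (chr7:34201330-34230336, minus strand), which converts glucose-6-phosphate to fructose-6-phosphate, was at 345, 352, 349 and 323 TPM in control, at 333, 346, 335 and 333 TPM in cHet and at 348, 381, 361 and 358 TPM in cKO. Its cKO and control libraries overlapped, and the difference was 0.08 ± 0.03 on the log2 scale with a 95% interval of 0.0064 to 0.16 (limma adjusted p = 0.180).

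In the later steps Pgk1 and Pgam1 rose by similar amounts and Pkm by less. Pgk1 (chrX:106187100-106203699, plus strand), which makes the first ATP of the pathway, was at 410, 406, 388 and 401 TPM in control, at 420, 445, 433 and 419 TPM in cHet and at 448, 460, 465 and 460 TPM in cKO. In deposited TPM the 3 groups did not overlap, with cHet between the others, and the mean library totals rose in the same order. Pgk1 rose by 0.19 ± 0.03 on the log2 scale in cKO against control (SE; limma adjusted p = 0.00124). The cKO difference of Pgk1 from cHet was 0.09 ± 0.03 (adjusted p = 0.0766). With equal library totals the cHet difference of Pgk1 from control was 0.04 ± 0.02 (SE; limma adjusted p = 0.448).

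Pgam1 (chr19:41911923-41918660, plus strand), which moves the phosphate of 3-phosphoglycerate, was at 418, 405, 403 and 390 TPM in control, at 409, 427, 432 and 415 TPM in cHet and at 432, 463, 457 and 471 TPM in cKO. Its cKO libraries lay above the controls and narrowly above cHet, and the rise against control was 0.17 ± 0.03 on the log2 scale (SE; limma adjusted p = 0.00682). Pkm (chr9:59656368-59679375, plus strand), which makes pyruvate, was at 1347, 1351, 1366 and 1315 TPM in control, at 1377, 1367, 1355 and 1317 TPM in cHet and at 1402, 1413, 1432 and 1466 TPM in cKO. All 4 cKO libraries were above the other 8, and the rise was 0.09 ± 0.02 on the log2 scale (SE; limma adjusted p = 0.0467). The call for Pkm was lost when any library of the control or cKO group was left out. Values are per gene, so the PKM1 and PKM2 splice forms are not separated, and how reads were divided between Aldoa, Pgk1, Pgam1 or Pkm and near-identical processed pseudogenes is uncertain.

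**Figure D3:**
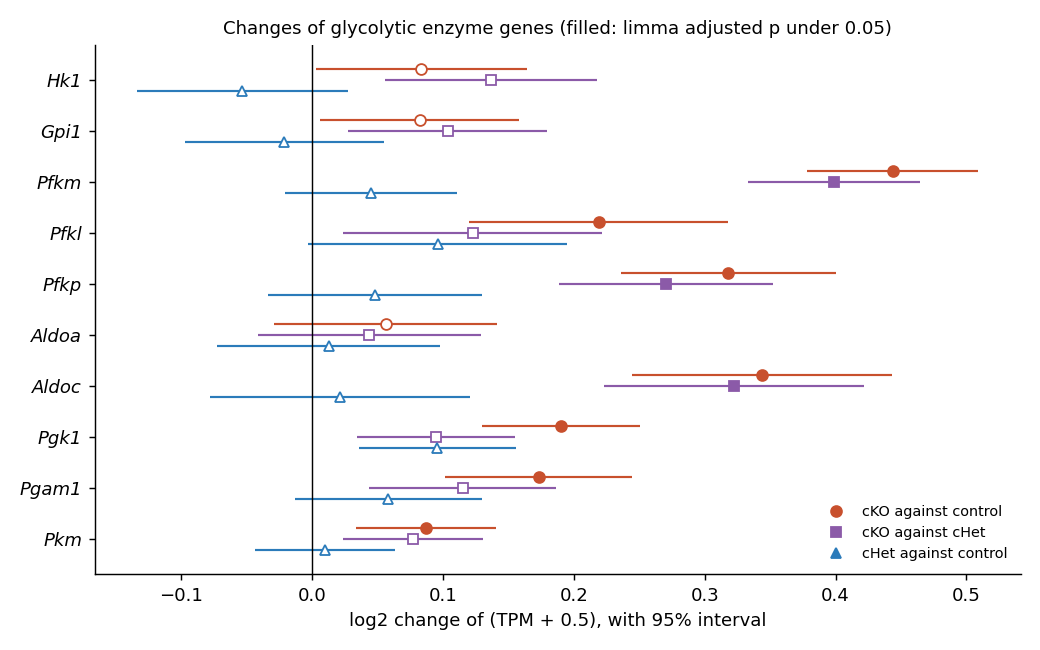
Log2 change of each gene, as log2(TPM + 0.5), with its 95% interval from limma, for cKO against control (circles), cKO against cHet (squares) and cHet against control (triangles); filled symbols have an adjusted p under 0.05. Pfkm, Pfkp and Aldoc are filled in both comparisons of cKO, and no symbol is filled for cHet against control.

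Counted over the 10 genes, all 10 changes of cKO against control were above 0, where 54.2% of all genes tested were. The median was 0.18 on the log2 scale against 0.01 for all genes tested. In deposited TPM every cKO library was above every control library in 8 of the 10, against 10.5% of all genes, the exceptions being Gpi1 and Aldoa. Such counts were not repeated under other scalings. With equal library totals Hk1 at −0.0094 and Pkm at −0.0063 lay below 0, so their cKO libraries did not all lie above the controls. The authors' deposited table for this comparison gave a likelihood ratio q-value under 0.05 with a positive effect to the same 7 genes that limma called, against 6.50% of the genes it tested, with q-values of 0.0242 for Pfkl and 0.0241 for Pkm. Its Wald q-value was under 0.05 for the same number of the 10, 7, against 6.99%. For cKO against cHet the median was 0.12, all 10 changes were above 0, against 52.0% of all genes, and in 7 of the 10 every cKO library was above every cHet library, against 6.14%. The authors' deposited table for that comparison gave 3 of the 10 a likelihood ratio q-value under 0.05 with a positive effect, against 1.87%, and 4 a Wald q-value under it, against 2.48%, the fourth being Pgam1.

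In cHet against control the median of the 10 changes was 0.03 on the log2 scale, against 0.01 for all genes tested, and 8 of the 10 were above 0, against 55.2%. With equal library totals the median was −0.02, against −0.04 for all genes tested, and fewer than 8 of the 10 were above 0. On the deposited scaling limma called 0 of the 10 and 0 of all genes tested (0.00%), with 1 of the 10 and 1724 of all genes at an unadjusted p under 0.05. The 1 gene was Pgk1, at 0.10 ± 0.03 (limma adjusted p = 0.252), whose cHet libraries all lay above the controls, as in 4.12% of all genes. The authors' deposited table also gave none of the 10 a q-value under 0.05 in this comparison, where its Wald test gave 23 genes in all one with a positive effect (0.128%) and its likelihood ratio test none (0.00%). Changes of cHet and of cKO against control share the control libraries. Pfkm, for example, had 0.04 ± 0.03 in cHet and 0.44 ± 0.03 in cKO, and Aldoc had 0.02 ± 0.05 and 0.34 ± 0.05.

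The sizes depended on the scaling between libraries. When every library was brought to an equal total, Pfkm at 0.35, Aldoc at 0.25, Pfkp at 0.23 and Pgk1 at 0.10 were still called in cKO against control, and Pfkl at 0.13 and Pgam1 at 0.08 were not. Under that scaling Hk1, Gpi1, Aldoa and Pkm lay between −0.04 and −0.0063 on the log2 scale, and the median of all genes tested was −0.07. With median-of-ratios size factors 6 of the 10 were called, all but Pkm of the original 7, and with totals equalised over genes that are not mitochondrially encoded 5 were called. Among all genes the size factors gave 734 called higher and 545 lower of 15257 tested. The totals without mitochondrially encoded genes gave 467 higher and 813 lower of 15665. Expressed as TPM of a library rescaled to the nominal TPM total, the 10 genes together made up 5796 ± 149 for control, 5684 ± 161 for cHet and 6154 ± 85.1 for cKO mice (SD, n = 4 each), and the lowest cKO library, at 6049, was above the highest control library, at 5901.

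**Figure D4:**
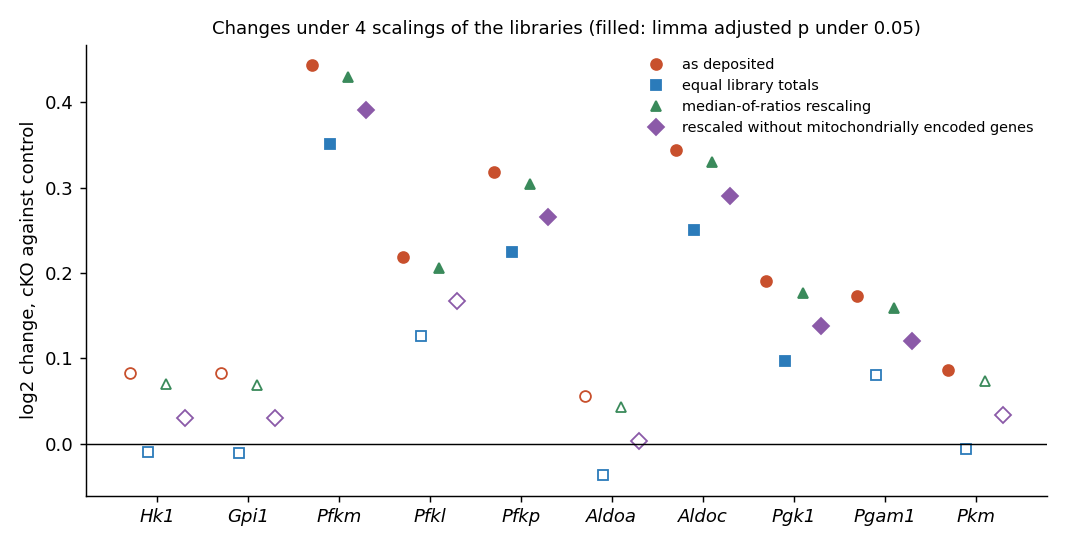
Log2 change of each gene in cKO against control under 4 scalings of the libraries, filled where the limma adjusted p is under 0.05. Pfkm, Pfkp, Aldoc and Pgk1 are filled under all 4, while Hk1, Gpi1, Aldoa and Pkm fall just below 0 with equal library totals.

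The other glycolytic enzymes gave a mixed picture. Of 14 listed genes 12 were tested, Hkdc1 and Pklr being below the filter, and 2 of the 12 rose in cKO against control while none fell, with a median of 0.06 on the log2 scale. The shares over all genes tested were 5.75% called higher and 3.25% lower. Tpi1, triose-phosphate isomerase, went from 550 ± 12.6 to 615 ± 11.5 TPM (0.16 ± 0.03; limma adjusted p = 0.00425). Eno1, the ubiquitous enolase, went from 449 ± 20.2 to 518 ± 23.3 TPM (0.21 ± 0.04; adjusted p = 0.00550). With equal library totals neither was called, at adjusted p of 0.0832 for Tpi1 and 0.0525 for Eno1. Gapdh, the most abundant of them, was at 2208 ± 69.7 in control and 2362 ± 127 TPM in cKO and did not pass the test (0.10 ± 0.05; adjusted p = 0.321), nor did Eno2, the neuronal enolase (0.07 ± 0.03; adjusted p = 0.137). Nor did the hexokinases Hk2 at −0.21 and Hk3 at 0.42, the ADP-dependent Adpgk at 0.02, Bpgm at −0.16, Pgam2 at 0.11 and the muscle enolase Eno3 at 0.05, with adjusted p between 0.267 and 0.928. Hk2 and Hk3 lay near the filter, at 1.67 ± 0.28 and 1.10 ± 0.47 TPM in control (SD, n = 4). The SE of their changes was 0.15 and 0.24. In cKO against cHet only Eno1 of this list was called, at 0.22 ± 0.04 (limma adjusted p = 0.00473), and in cHet against control none was, Eno3 at −0.17 and Tpi1 at 0.07 having the smallest p.

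Of the 5 enzymes that make or remove fructose 2,6-bisphosphate, the activator of phosphofructokinase, 1 rose in cKO against control. Pfkfb3, a bifunctional enzyme that favours its synthesis, went from 44.3 ± 1.75 to 52.2 ± 2.20 TPM (0.23 ± 0.04; limma adjusted p = 0.00309) and was also higher than in cHet (0.23; adjusted p = 0.00394). Downstream, among 16 genes of pyruvate use, 4 rose and 1 fell. For both lists the shares over all genes tested are 5.75% called higher and 3.25% lower. The lactate dehydrogenase subunits rose, Ldha from 85.0 ± 3.41 to 110.0 ± 4.46 TPM (0.37 ± 0.04; adjusted p = 0.000362) and Ldhb from 851 ± 14.8 to 987 ± 6.38 TPM (0.21 ± 0.03; adjusted p = 0.000371). The mitochondrial pyruvate carrier subunit Mpc2 rose by 0.20 (adjusted p = 0.00896) and the pyruvate dehydrogenase subunit Pdhb by 0.11 (adjusted p = 0.0390), whereas Pcx, pyruvate carboxylase, known in nervous tissue mainly from astrocytes, fell by 0.15 (adjusted p = 0.0449). Pcx is named as the only gene of that list that fell, and it was lower against cHet as well, at −0.16 (limma adjusted p = 0.0461). These calls of Pcx were lost in 9 of 19 alternatives against control and in 10 of 19 against cHet. With equal library totals the calls of Mpc2 and Pdhb were lost, and Pdhb lost its call in 11 of the 19 alternatives tried.

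Few genes of the branches off the pathway were called. Over all genes tested, 5.75% were called higher in cKO against control and 3.25% lower. None of the 8 pentose phosphate genes was called, with a median of 0.01; G6pdx, the entry enzyme, was at 0.16 (limma adjusted p = 0.0670) and Pgls at 0.24 (adjusted p = 0.143). Of 9 genes of the NADH shuttles 2 rose, Mdh2 by 0.14 (adjusted p = 0.0362) and Mdh1 by 0.09 (adjusted p = 0.0487), and neither was called with equal library totals or in 11 other alternatives or more. Of 15 genes of the hypoxia pathway outside glycolysis, 1 rose and 1 fell: Epas1, which encodes HIF-2 alpha, by 0.28 (adjusted p = 0.00288), and Ndrg1, a hypoxia-inducible gene that myelinating cells also express, fell by 0.23 (adjusted p = 0.00171). Hif1a was at 0.15 (adjusted p = 0.0535). In cHet against control none of these lists held a called gene. The smallest p belonged to Ldhb at 0.10 and Pdp1 at 0.15 among pyruvate genes, to P4ha1 at 0.43 and Bnip3 at 0.13 among hypoxia genes, and to Mdh1 at 0.09 among shuttle genes, with adjusted p between 0.168 and 0.305.

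**Figure D5:**
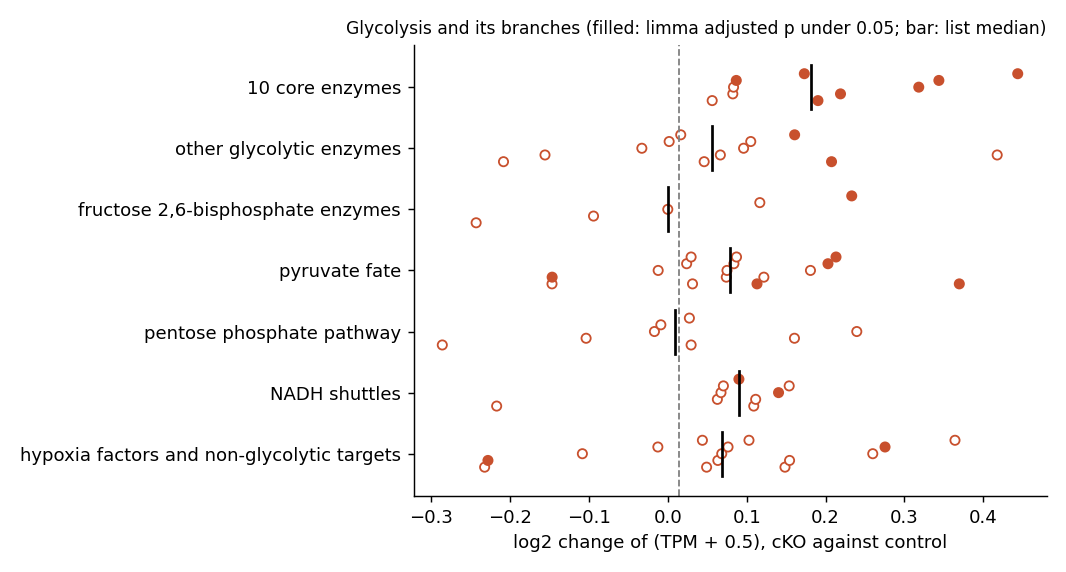
Log2 change in cKO against control, as log2(TPM + 0.5), for the 10 genes and 6 lists of related genes, 1 point a gene, filled where the limma adjusted p is under 0.05; the short bar is the list's median and the dashed line the median of all genes tested. The 10 core enzymes have a median of 0.18, and Ldha at 0.37 is the highest filled point outside them.

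Markers of cell types moved between the groups as well, and in whole cord a change in the number of cells of a type and a change in RNA per cell cannot be told apart. Beside the counts below, 5.75% of all genes tested were called higher in cKO against control and 3.25% lower. Of 10 astrocyte markers 3 rose in cKO against control (Slc1a2, Atp1b2 and Gfap) and 2 fell (Slc1a3 and Gja1), and their summed level was 2650 to 2798 TPM for control, 2612 to 2837 for cHet and 3153 to 3580 for cKO mice. Of 10 microglial markers 8 rose and none fell, with sums of 331 to 339, 344 to 367 and 431 to 466 TPM. Of 10 oligodendrocyte markers none rose and 8 fell, with sums of 20834 to 21776, 20886 to 24627 and 17308 to 19723 TPM. Of 10 neuronal markers 3 rose (Rbfox3, Syn1 and Slc32a1) and none fell, with sums of 6709 to 6960, 6813 to 7519 and 6924 to 7532 TPM. None of the 7 endothelial markers, 5 red blood cell markers, 3 muscle markers tested of 9, or 2 Schwann cell markers tested of 5 was called, and no marker was listed at 0 in all libraries. The part of these cell type differences in the glycolytic values was not tested.

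The change in cKO against control was similar in females and males, with 2 mice of each sex a group and no test made. As the log2 ratio of mean TPM, Pfkm was 0.42 in females and 0.47 in males, Aldoc 0.31 and 0.37, Pfkp 0.27 and 0.36, and Pgk1 0.21 and 0.17. Each of the 10 genes had a ratio above 0 in both sexes.

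Among 6863 other genes that averaged 20 TPM or more, the 5 nearest to the mean profile of the 10 over the 12 libraries included Tubb2a, a beta tubulin, Idh3b of the citric acid cycle, Atp5a1, a subunit of ATP synthase, and Ppif, the mitochondrial cyclophilin. Their root mean square distance from that profile was 0.03 on the log2 scale for each, where a flat profile lay at 0.09. They were picked for the smallest distances, so these small values follow from the choice. Among the 10 genes themselves the distance ran from 0.04 for Pgam1 to 0.11 for Pfkm. In cKO against control Atp5a1 went from 268 ± 3.92 to 303 ± 7.07 TPM and Idh3b from 278 ± 3.63 to 310.5 ± 6.36 TPM (SD, n = 4 each).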

How the data were processed

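RNA from whole spinal cord of 12 mice was sequenced, 1 library a mouse. Reads were handled with kallisto 0.44.0 and sleuth 0.30.0 on GRCm38, per the submitters' processing notes; their annotation release is not given in the sources used here. From this the authors deposited a normalized TPM per gene, a signal that is never negative and whose totals differ between libraries. The authors also deposited q-values of a likelihood ratio and a Wald test per gene and an effect estimate, a score used here only for its sign. Read depth is unknown, so no counting interval is given.

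Genes averaging 1 TPM or more were kept, 0.5 TPM was added before the log2 transform, and limma 3.58.1 in R 4.3.3 (lmFit, contrasts, eBayes with trend, two-sided) was fitted to all 12 libraries with no covariate and Benjamini-Hochberg adjustment within each comparison. Fold changes are on the log2(TPM + 0.5) scale, which understates changes of low genes. Library totals were compared with an exact permutation test (scipy 1.17.1). Replicates were separate mice by their labels, and the labels give no batch. Gene positions come from GENCODE M21 (GRCm38) and promoters from RefSeq. The limma step was tested on simulated data, with 50 genes per size of change drawn from all genes tested. A true log2 change of 0.25 was called in 30% for cKO against control, 26% for cHet against control and 22% for cKO against cHet. A change of 0.5 was called in 76%, 72% and 78% in the same order. Alternatives were 2 other pseudocounts, 2 filters, 3 scalings, sex as a covariate, only the groups compared, robust eBayes, summing rows of a symbol, and leaving out each library.

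The genes and lists were chosen with earlier results of these data known. Values are given for the 10 genes, Tardbp, tested members of the other glycolytic enzymes for cKO against control, up to 4 called members of each other list by adjusted p or the 2 with the smallest p, and the 5 genes nearest to the mean profile. A few genes taken by this rule are counted but not reported here.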

Additional observations from a re-analysis of the deposited data

Results flagged for a closer look

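In 3 of the 54 groups of 4 libraries examined, 1 library lay far from the other 3 by Dixon's criterion, which chance meets in about 1 group in 20. In cHet, replicate 2 had 346 TPM of Gpi1, where the other 3 libraries had 333 to 335 TPM. In cKO, replicate 4 had 58.8 TPM of Pfkl, where the others had 53.0 to 53.8 TPM. In control, replicate 3 had Aldoc at 50.4% of the summed TPM of Aldoa and Aldoc, where the others had 48.4% to 48.6%.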

How the results depend on the processing

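No paired analysis was possible because the labels give no replicate numbers, so that the numbers used here only name mice. Of the 10 glycolytic genes 7 were called higher in cKO against control, and 4 with equal library totals. In cKO against cHet 3 were called, 6 when libraries were rescaled without mitochondrially encoded genes and 5 without cHet replicate 2. Without 1 library the count was 6 in cKO against control in every case, and 3 to 5 in cKO against cHet. Pfkm, Pfkp and Aldoc kept their calls in both comparisons under all 19 alternatives. Over all genes, 1374 were called in cKO against control, and 814 to 1143 without 1 library (for cKO replicate 2, 814; for cKO replicate 4, 890; and for control replicate 2, 907). In cHet against control 0 genes were called, 2 without the filter and 0 to 1 without 1 library. The summed level of the 10 genes, relative to the library total in the report, was 5605 TPM in control and 6349 TPM in cKO as deposited, and relative to the total without mitochondrially encoded genes it was 7007, 6861 and 7651 TPM in control, cHet and cKO.

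None of the values that changed sign was called after the change, and Pkm and Mdh1 had been called before it. In cKO against control, equal library totals gave Hk1 −0.0094, Gpi1 −0.011, Aldoa −0.037, Pkm −0.0063, Adpgk −0.074, Eno2 −0.026, Eno3 −0.045 and Mdh1 −0.0029. Rescaling without mitochondrially encoded genes put Adpgk at −0.035 and Eno3 at −0.0056. Without 1 library Adpgk ran from −0.023 to 0.093 and Eno3 from −0.0077 to 0.070. In cHet against control, equal library totals gave Pfkm −0.0065, Pfkp −0.0035, Aldoa −0.039, Aldoc −0.030, Pkm −0.042 and Slc25a12 −0.019, and rescaling without mitochondrially encoded genes gave −0.0087, −0.0057, −0.041, −0.033, −0.044 and −0.021 for the same genes. Without 1 library Aldoa ran from −0.019 to 0.034, Aldoc from −0.0027 to 0.062, Pkm from −0.00089 to 0.023, H6pd from −0.29 to 0.0034 and Tardbp from −0.025 to 0.033. The cause of the remaining differences between settings was not tested.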
